A study of Bos taurus with 15 samples.

Results

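Sequestosome 1 (SQSTM1, also called p62) and 9 core autophagy genes were followed in bovine blastocysts cultured with or without extracellular vesicles of the oviduct (oEVs). The set held SQSTM1, GABARAP, GABARAPL1, GABARAPL2, MAP1LC3B, ATG5, ATG7, BECN1, ULK1 and WIPI2. The rows of these symbols were taken from the filtered table of read counts, and all 10 were found among its 10832 genes, so no member was lost to the filter on low counts. The rule names the genes by symbol and sets no threshold on their values, but it was written with earlier results of these data known.

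Embryos of Bos taurus were produced by in vitro fertilization and, per the labels, collected as blastocysts at day 7. The paper instead gives 8 days of culture. Each library was made from 1 ng of total RNA of 1 pool of 8 to 14 embryos. Control embryos (Co) were cultured without supplementation, one EV group with oEVs of the postovulatory stage used freshly after isolation (FeEV) and the other with such oEVs after freezing and thawing (FoEV), with 5 libraries each. The methods name 7 FeEV, 8 FoEV and 6 Co pools, of which the libraries were made from those with the best RNA, and whether the pools of a group came from separate fertilization rounds is not given in the sources used here. The p-values therefore measure the spread between these pools, and in pools of whole embryos fewer cells of a type and less RNA per cell cannot be told apart.

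Autophagy encloses cytoplasm in a double membrane, the autophagosome, and hands it to the lysosome for breakdown. A kinase complex around ULK1 starts the process, a lipid kinase complex around BECN1 marks the membrane, WIPI2 reads that mark, and ATG7 and ATG5 take part in coupling the small ATG8 proteins (the LC3 and GABARAP families) to the growing membrane, where receptors such as SQSTM1 bring in ubiquitin-bound cargo. SQSTM1 protein is itself degraded in this way, and its gene is also a known target of the NRF2 stress response. In early mammalian embryos autophagy is known for the turnover of maternal proteins after fertilization.

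No member passed an adjusted p under 0.05 when FoEV was compared with Co, FeEV with Co or FoEV with FeEV (0 of 10 each, quasi-likelihood test of edgeR with Benjamini-Hochberg adjustment over 10832 genes). The background was low as well in this test, with 0.00923%, 0.0% and 0.0% of all genes called in these 3 comparisons. It depended on the test, as robust dispersion with a likelihood ratio test called 311, 6 and 31 of all genes. An unadjusted p under 0.05 in edgeR was found for 2, 1 and 3 of the 10 members, against a background of 15.1%, 4.15% and 8.52% of all genes. Between FoEV and Co these were 1 member higher and 1 lower in FoEV, where 8.18% and 6.88% of all genes were higher and lower. Between FeEV and Co 0 were higher and 1 lower, against 1.83% and 2.32%, and between FoEV and FeEV 3 were higher and 0 lower, against 4.83% and 3.69%. When libraries were scaled by their totals alone, higher genes made up 65.5% instead of 54.3% of those with an unadjusted p under 0.05 between FoEV and Co, and 70.4% instead of 44.1% between FeEV and Co. DESeq2, like every other setting tried, called 0 members in each comparison. In no comparison did the libraries of a member separate completely, whereas 2.6%, 0.951% and 1.5% of all genes had groups that did not overlap. Between FoEV and Co the member with the smallest p was SQSTM1, higher in FoEV. It was ATG5, lower in FeEV, between FeEV and Co, and GABARAPL1, higher in FoEV, between FoEV and FeEV. Counted by sign alone, 6 members were higher and 4 lower in FoEV than in Co, 3 higher and 7 lower in FeEV than in Co, and 6 higher and 4 lower in FoEV than in FeEV, with median log2 differences of 0.02, -0.06 and 0.06 against 0.01, 0.0039 and 0.0092 over all genes. With library totals as the only scale the second and the last split became 4 and 6 and 5 and 5.

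Libraries held 2571558 to 2977004 counts in Co, 2136713 to 3808602 in FeEV and 3392613 to 4058887 in FoEV, so that every FoEV library was deeper than every Co library. Each member had between 43 and 714 counts per library. Levels below are CPM, counts scaled to a common library size with TMM factors, which are not corrected for gene length and are compared between libraries and not between genes. The 6 trophectoderm markers summed to 6257 to 8502 CPM in Co, 6833 to 10268 in FeEV and 8160 to 11054 in FoEV. Most of the sum came from the keratins KRT8, with means of 4266, 4806 and 5088 CPM, and KRT18, with 2684, 3216 and 3929. GATA3 had means of 207, 232 and 237 CPM, TFAP2C 164, 176 and 188 and CDX2 32.9, 34.9 and 37.9. IFNT2 had 0 to 41 counts per library. The 3 genes of the inner cell mass summed to 233 to 306, 232 to 292 and 219 to 338 CPM in Co, FeEV and FoEV, with means of 80.4, 52.1 and 45.01 CPM for NANOG, 168, 185 and 194 for POU5F1 and 32.4, 26.1 and 31.9 for SOX2. The 3 hypoblast genes summed to 403 to 491, 354 to 442 and 388 to 487 CPM in Co, FeEV and FoEV. Most of this was GATA6, with means of 437, 404 and 428 CPM. Markers of cells from outside the embryo were summed as well. The 4 genes of the oviduct epithelium summed to 15.5 to 34.3, 13.1 to 16.4 and 14.3 to 33.3 CPM in Co, FeEV and FoEV, where OVGP1 and FOXJ1 had at most 6 and 4 counts, PAX8 12 to 46 and MUC16 18 to 96. MUC16 differed by -0.88 on the log2 scale between FeEV and Co (edgeR adjusted p = 1.0). The 5 genes of cumulus and granulosa cells summed to 24.3 to 37.7, 25.9 to 44.6 and 23.1 to 44.2 CPM, with at most 1 count of PTX3 but 36 to 140 of CYP19A1 and 14 to 43 of FSHR, and the 3 genes of blood cells to at most 6.56 CPM, with HBB at 0 counts in every library. The part of such cells in the differences below was not tested.

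**Figure D1:**
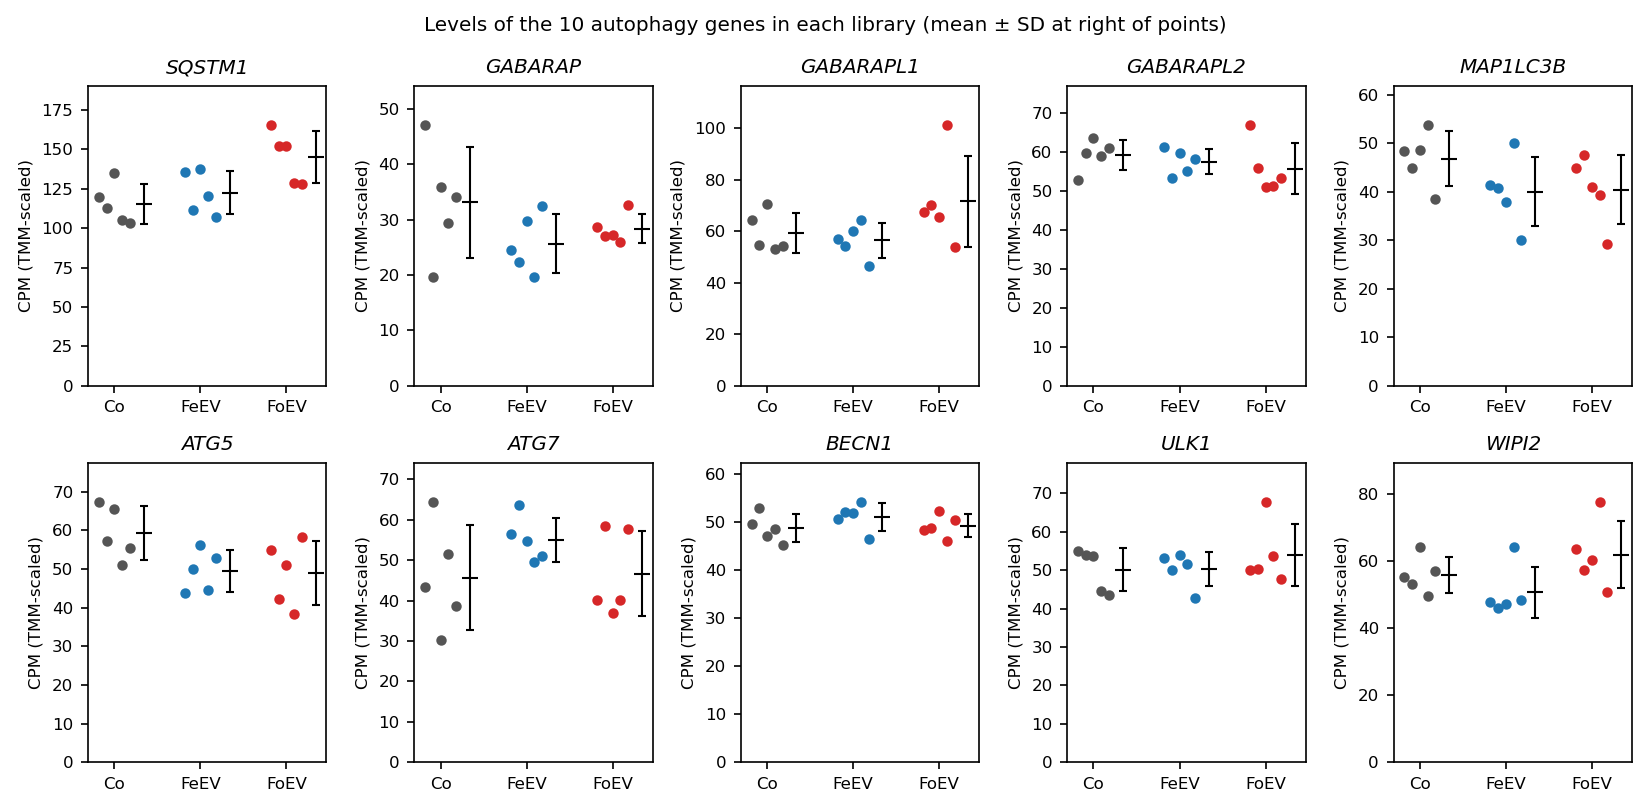
Level of each of the 10 autophagy genes in every library, on a linear axis of CPM that starts at 0, with 1 point per library and the mean ± SD of the 5 libraries of a treatment at the right of its points. The 3 highest FoEV points of SQSTM1 (151.9 to 165.3 CPM) lie above all Co and FeEV points, and the points of BECN1 lie between 45.1 and 54.2 CPM in all treatments.

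SQSTM1 (gene 338045), the receptor that links ubiquitin-bound cargo to ATG8 proteins, was read with 252 to 714 counts per library. Its level was 119.6, 112.7, 134.8, 105.2 and 103.4 CPM in Co replicates 1 to 5. In FeEV it was 135.3, 111.8, 137.3, 120.2 and 107.3 CPM, and in FoEV 165.3, 151.9, 152.1, 128.5 and 127.9 CPM. FoEV replicates 1 to 3 lay above all libraries of the other groups, and the other FoEV replicates fell within the ranges of both groups. Replicate 5 had the lowest level of each treatment. The means were 115 ± 12.7, 122 ± 13.6 and 145 ± 16.4 CPM in Co, FeEV and FoEV (SD, n = 5). FoEV libraries were 1.26-fold higher than Co libraries, a log2 difference of 0.33 (standard error 0.10, 95% interval 0.12 to 0.55, edgeR adjusted p = 0.153), which is rank 259 of the 10832 genes by p. Compared with FeEV libraries the log2 difference was 0.25 (standard error 0.10, interval 0.03 to 0.46, edgeR adjusted p = 0.538). FeEV and Co libraries differed by 0.09 (interval -0.13 to 0.30, edgeR adjusted p = 1.0), so a difference of up to 0.30 on the log2 scale could not be told from none. These comparisons share libraries, since the same 5 FoEV libraries enter the first and the second.

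The difference of SQSTM1 between FoEV and Co libraries kept an unadjusted p under 0.05 when each of their 10 libraries was left out in turn, with log2 values from 0.28 without FoEV replicate 1 to 0.40 without Co replicate 3. Counts thinned to the lowest library total, a setting chosen after seeing that FoEV libraries were deeper, gave 0.30. Under the 10 settings other than leaving out a library, which include blocks by replicate number, log2 values ran from 0.30 to 0.40. Each had an unadjusted p under 0.05. The adjusted p ran from 0.0555 with robust dispersion and a likelihood ratio test to 0.368 in edgeR with library totals as the only scale. Against FeEV libraries, the unadjusted p stayed under 0.05 in 6 of 10 runs that left out 1 library. The trophectoderm genes KRT18 (log2 difference 0.55, edgeR adjusted p = 0.0816) and GATA3 (0.19, adjusted p = 0.238) were also higher in FoEV than in Co libraries, and so was library depth, and their part in the difference of SQSTM1 was not tested. In a later annotation SQSTM1 overlaps the genes MGAT4B and MRNIP, and reads from overlapping genes may be split between them by the counting, whose strand setting is not given in the sources used here. MGAT4B, a glycosyltransferase gene, had 44.2, 43.98 and 50.2 CPM in Co, FeEV and FoEV and a log2 difference of 0.19 between FoEV and Co (standard error 0.11, edgeR adjusted p = 0.421), and MRNIP one of -0.09.

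Of the other cargo receptors listed beside SQSTM1, none had an unadjusted p under 0.05 between FoEV and Co libraries. Among the 12 measured receptors, 7 were higher and 5 lower in FoEV than in Co, with a median log2 difference of 0.03 against 0.01 over all genes, and the split became 6 and 6 with DESeq2 size factors. TAX1BP1 and NBR1, receptors that bind ubiquitin like SQSTM1, had log2 differences of -0.20 and -0.14, OPTN 0.06 and CALCOCO2 0.17. BNIP3L and FUNDC1, receptors on mitochondria, had -0.17 and 0.20. TEX264 and TOLLIP had 0.32 and 0.23. Receptors of the same class thus lay on both sides of 0, with SQSTM1 (0.33) and TEX264 at the upper end.

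The ATG8 proteins are coupled to the lipid phosphatidylethanolamine and coat the autophagosome membrane, where they bind receptors and enclosing proteins. GABARAPL1 (gene 338472) was measured at 64.5, 54.7, 70.6, 52.98 and 54.2 CPM in Co replicates 1 to 5. FeEV replicates had 56.9, 54.2, 60.1, 64.2 and 46.6 CPM, and FoEV replicates 67.6, 70.1, 65.6, 101.2 and 53.7 CPM. FoEV replicates 1 to 4 lay above every FeEV library, while only replicate 4 lay above every Co library and replicate 5 was among the low values of the series. The log2 difference was 0.34 between FoEV and FeEV libraries (standard error 0.14, interval 0.06 to 0.63, edgeR adjusted p = 0.523) and 0.26 between FoEV and Co libraries (standard error 0.14, edgeR adjusted p = 0.380). Without FoEV replicate 4 these values were 0.19 and 0.11, so that this 1 library carried a large part of both.

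GABARAP (gene 327715), the founding member of its family, had 47.0, 19.6, 35.8, 29.3 and 34.1 CPM in Co, which spanned the range of all 15 libraries. FeEV libraries lay between 19.6 and 32.4 CPM and FoEV libraries between 26.0 and 32.7 CPM. The spread in Co, a coefficient of variation of 30.2%, was above the 10.5% that counting alone gives at this depth, and in FoEV, with 9.25% against 9.73%, it was not. GABARAP was lower by 0.35 on the log2 scale in FeEV than in Co (standard error 0.18, edgeR adjusted p = 1.0), a value that was -0.19 without Co replicate 1 and -0.50 without Co replicate 2. Between FoEV and Co libraries it was -0.22 (adjusted p = 0.571), and -0.06 without Co replicate 1.

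MAP1LC3B (gene 408001), which encodes the LC3B protein used as the standard marker of autophagosomes, averaged 46.9 ± 5.62, 40.1 ± 7.18 and 40.4 ± 7.09 CPM in Co, FeEV and FoEV (SD, n = 5). The lowest levels were 30.2 and 29.2 CPM in replicate 5 of FeEV and of FoEV, and replicate 5 was also the lowest of Co with 38.6 CPM. The log2 difference from Co was -0.24 in FeEV and -0.21 in FoEV (standard error 0.14 each), with edgeR adjusted p of 1.0 and 0.486. Without replicate 5 of the EV group compared, these values were -0.15 and -0.11, but Co replicate 5 was kept in these runs. With the replicate number of the titles as a block, the edgeR adjusted p between FoEV and Co was 0.323. With the library numbers of the sample descriptions as a block it was 0.708. GABARAPL2 (gene 282531), the GATE-16 protein, had the lowest fitted dispersion of the 4 members in this family (biological coefficient of variation 9.49%), with 59.3 ± 3.97, 57.6 ± 3.26 and 55.7 ± 6.55 CPM in Co, FeEV and FoEV (SD, n = 5). All its log2 differences lay between -0.09 and -0.04, and the interval between FoEV and Co ran from -0.29 to 0.12. In the later annotation GABARAPL2 overlaps the gene ADAT1, so the caution on reads of overlapping genes given for SQSTM1 holds here too. ADAT1 had a log2 difference of -0.16 between FoEV and Co (standard error 0.12, edgeR adjusted p = 0.521).

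The fifth measured gene of this family, MAP1LC3A, had only 12 to 93 counts per library and larger differences. Its level was 12.4, 4.72, 8.38, 9.23 and 8.21 CPM in Co, 9.84, 4.46, 11.6, 5.47 and 8.66 CPM in FeEV and 21.5, 15.1, 8.27, 19.7 and 12.5 CPM in FoEV. FoEV replicates 1, 2, 4 and 5 lay above every Co and FeEV library, and replicate 3 lay within both ranges. MAP1LC3A was higher by 0.85 on the log2 scale in FoEV than in Co (standard error 0.28, edgeR adjusted p = 0.178) and by 0.92 than in FeEV (standard error 0.28, edgeR adjusted p = 0.453). With no filter on low counts its adjusted p between FoEV and Co was 0.0406. The 5 measured ATG8 genes did not share a direction, since between FoEV and Co 2 were higher and 3 lower. Between FeEV and Co all 5 were lower, by 0.04 to 0.35 on the log2 scale, with TMM, DESeq2 size factors or library totals as the scale, but none had an unadjusted p under 0.05 in edgeR. This direction did not hold throughout, as MAP1LC3A turned to 0.10 without Co replicate 1 and with the library numbers of the sample descriptions as a block the split was 2 higher and 3 lower. ATG8 genes are related in sequence, and how reads with several matches were counted is not given in the sources used here.

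**Figure D2:**
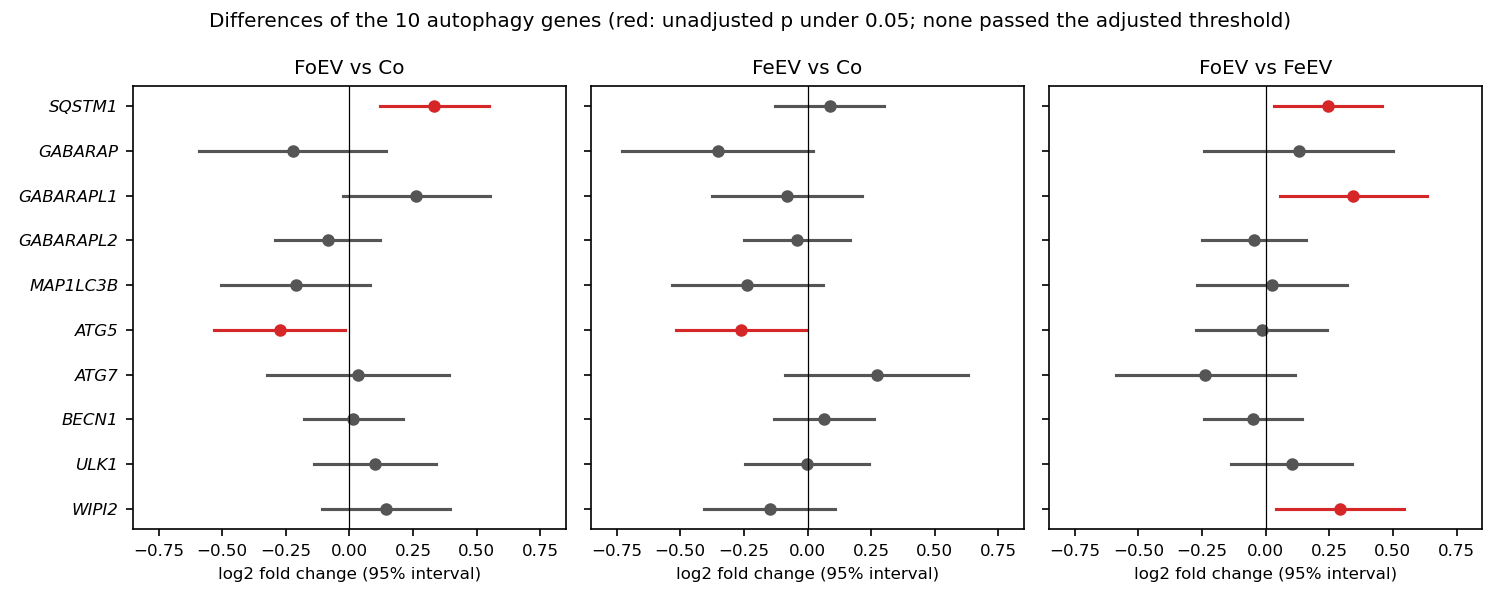
Log2 fold change of the 10 autophagy genes in the 3 comparisons, on a common axis, where points are the edgeR estimates and bars their 95% intervals. Points with an unadjusted p under 0.05 are red, and all of them fell short of the adjusted threshold. Intervals of ATG5 lie just below 0 in both comparisons with Co, and those of SQSTM1, GABARAPL1 and WIPI2 lie above 0 between FoEV and FeEV.

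ATG5 (gene 532686), part of the complex that places ATG8 proteins on the membrane, was the one member with an unadjusted p under 0.05 against Co in both EV groups. Co replicates 1 to 5 had 67.5, 57.4, 65.5, 50.97 and 55.4 CPM. FeEV replicates had 43.8, 50.1, 56.3, 44.6 and 52.8 CPM, and FoEV replicates 54.9, 42.4, 50.97, 38.4 and 58.3 CPM. FeEV replicates 1, 2 and 4 and FoEV replicates 2 and 4 had less than any Co library, FoEV replicate 3 was level with the lowest of them, and the others lay within the Co range. The log2 difference from Co was -0.26 in FeEV (standard error 0.12, edgeR adjusted p = 1.0) and -0.27 in FoEV (standard error 0.12, edgeR adjusted p = 0.294), and the same Co libraries enter both. These values stayed negative in every run that left out 1 library, from -0.31 to -0.21 and from -0.34 to -0.20, but the unadjusted p was under 0.05 in only 4 and 6 of 10 such runs. Between FoEV and FeEV, ATG5 differed by -0.02 (interval -0.27 to 0.24, edgeR adjusted p = 0.982).

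ATG7 (gene 787967), the enzyme that activates ATG8 proteins and ATG12 for coupling, had 43.4, 64.4, 30.3, 51.4 and 38.6 CPM in Co, a coefficient of variation of 28.5% against 8.94% from counting. FeEV libraries were closer together, between 49.6 and 63.5 CPM, and lay within the range of Co. In FoEV, 58.5 and 57.8 CPM in replicates 2 and 5 stood beside 36.9 to 40.1 CPM in the other 3. The log2 difference between FeEV and Co was 0.27 (standard error 0.17, edgeR adjusted p = 1.0), with 0.15 without Co replicate 3 and 0.43 without Co replicate 2. FoEV and Co libraries differed by 0.03 (interval -0.32 to 0.39), and this value turned to -0.09 without Co replicate 3.

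The 11 measured genes of the coupling machinery had negative differences in most cases, 9 of 11 in both comparisons with Co, which share the Co libraries. Their median log2 difference was -0.12 in FoEV and -0.18 in FeEV, against 0.01 and 0.0039 over all genes. With the library numbers of the sample descriptions as a block, 7 of 11 were lower in FoEV, with a median of -0.06, and 8 of 11 in FeEV. Only ATG5 in FoEV, and ATG5 and ATG4C in FeEV, had an unadjusted p under 0.05. ATG4C, one of the proteases that trim ATG8 proteins, had 20.2 ± 5.02 CPM in Co and 15.2 ± 0.643 in FeEV (SD, n = 5), a log2 difference of -0.42 (standard error 0.17, edgeR adjusted p = 1.0). Its Co libraries ran from 15.3 to 26.7 CPM and its FeEV libraries from 14.5 to 16.1. ATG16L1, the partner of ATG5 in its complex, had -0.18 between FoEV and Co, and ATG12 -0.12.

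BECN1 (gene 527278), the scaffold of the lipid kinase complex, had the lowest fitted dispersion of the members, a biological coefficient of variation of 7.77%. Co libraries ran from 45.1 to 53.0 CPM, FeEV libraries from 46.4 to 54.2 and FoEV libraries from 46.1 to 52.3. The coefficients of variation, 6.02%, 5.68% and 4.78%, were below the 8.64%, 8.11% and 7.39% of counting alone, so no spread between pools was detectable at this depth. BECN1 differed by 0.01 between FoEV and Co on the log2 scale (interval -0.18 to 0.21), by 0.06 between FeEV and Co (-0.13 to 0.26) and by -0.05 between both EV treatments (-0.24 to 0.14). Of the 8 measured genes of this complex and its regulators, none had an unadjusted p under 0.05 in any of the 3 comparisons.

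ULK1 (gene 526310), the kinase that starts autophagy, had means of 50.1 ± 5.61, 50.2 ± 4.43 and 53.9 ± 8.06 CPM in Co, FeEV and FoEV (SD, n = 5). One FoEV library, replicate 3 with 67.8 CPM, stood above all others, whose highest value was 55.1 CPM in Co replicate 1. The log2 difference between FoEV and Co was 0.10 (interval -0.14 to 0.34, edgeR adjusted p = 0.7099) and -0.0031 without that library. FeEV and Co differed by -0.0014 (interval -0.25 to 0.24). ATG101, a subunit of the same kinase complex, had 10.3 ± 0.654 CPM in Co and 13.7 ± 3.11 in FoEV, a log2 difference of 0.42 (standard error 0.18, edgeR adjusted p = 0.280), with FoEV replicate 5 (9.27 CPM) at the lower end of the Co range. RB1CC1, the large scaffold of the complex, had -0.15.

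WIPI2 (gene 512685), which binds the lipid mark and recruits the coupling complex, had 55.4, 53.3, 64.2, 49.8 and 57.0 CPM in Co. FeEV replicates had 47.98, 46.05, 47.2, 64.2 and 48.3 CPM, and FoEV replicates 63.7, 57.3, 60.3, 77.8 and 51.0 CPM. FeEV libraries other than replicate 4 lay below every Co and every FoEV library, and FoEV replicate 4 was the highest of all. The log2 difference between FoEV and FeEV was 0.29 (standard error 0.12, interval 0.04 to 0.54, edgeR adjusted p = 0.538), with values from 0.20 without FoEV replicate 4 to 0.38 without FeEV replicate 4. Against Co, FeEV had -0.15 and FoEV 0.14 (edgeR adjusted p = 1.0 and 0.594). With 1 library left out these ran from -0.24 without FeEV replicate 4 to -0.09 without Co replicate 3, and from 0.05 without FoEV replicate 4 to 0.21 without FoEV replicate 5. WDR45, of the same protein family, was higher by 0.29 in FoEV than in Co and in FeEV (edgeR adjusted p = 0.330 and 0.578), and both values were 0.13 without FoEV replicate 1, which had 65.3 CPM. TMEM41B, a lipid scramblase needed for membrane growth, had 72.1 ± 10.2 CPM in Co and 56.6 ± 10.6 in FoEV (SD, n = 5), a log2 difference of -0.35 (standard error 0.13, edgeR adjusted p = 0.220).

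**Figure D3:**
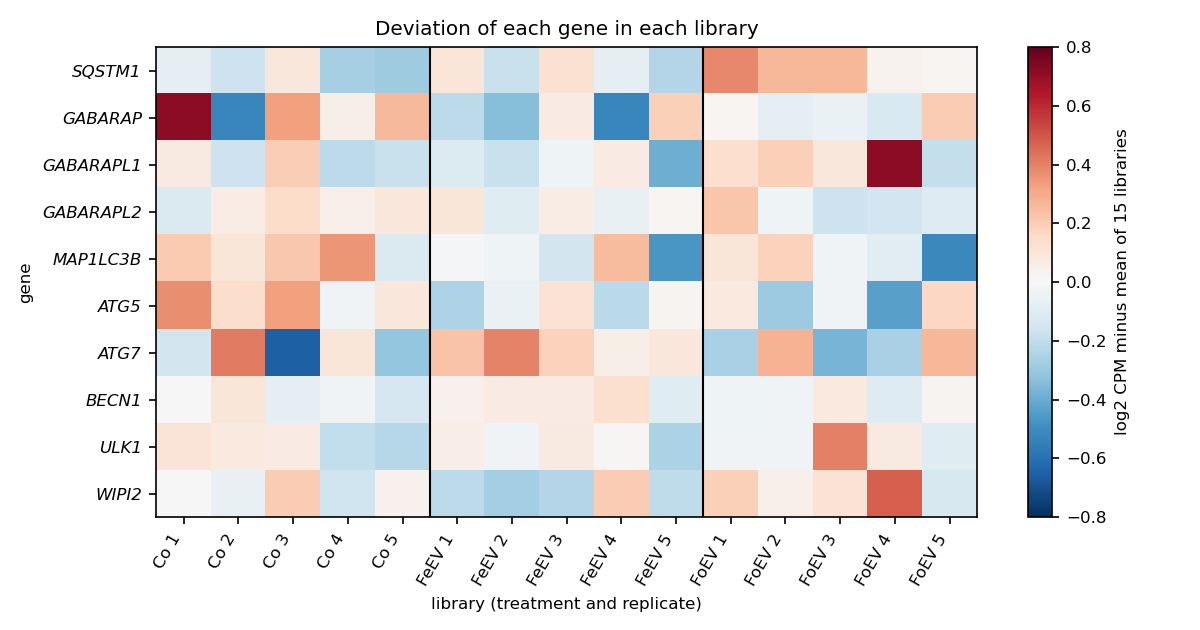
Deviation of the log2 CPM of each of the 10 autophagy genes (rows) from its mean over the 15 libraries, per library (columns, ordered by treatment), with red above and blue below the mean. GABARAPL1 and WIPI2 both have their highest value in FoEV replicate 4, and GABARAP and ATG5 in Co replicate 1.

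Across libraries the members did not vary as a block. Over the 45 pairs of members, the correlation of log2 CPM within treatments (15 libraries, deviations from the treatment means) had a median of -0.01, and 22 pairs were above 0. GABARAPL1 and WIPI2 had the highest value, 0.81, both being highest in FoEV replicate 4, and ATG7 and WIPI2 the lowest, -0.64. BECN1 and ULK1 had 0.61. These values are descriptions, as the points share library depth and scaling.

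Genes with a pattern most like SQSTM1 were looked for among all 10832 genes by the Pearson correlation of log2 CPM over the 15 libraries. The 5 highest were MRPL16 (0.895), RBM38 (0.872), LMO4 (0.8499), DOCK6 (0.846) and DYNLT1 (0.842), and within treatments their values were 0.828, 0.781, 0.826, 0.680 and 0.765. MRPL16 encodes a protein of the mitochondrial ribosome, RBM38 an RNA-binding protein, LMO4 a LIM-domain transcription cofactor, DOCK6 an exchange factor for small GTPases and DYNLT1 a light chain of dynein. DOCK6 was higher by 0.64 on the log2 scale in FoEV than in Co (edgeR adjusted p = 0.067). Of the autophagy members, ULK1 came nearest to SQSTM1 with 0.575, rank 319, followed by GABARAPL1 with 0.519, rank 526. ATG5 and ATG7 had -0.14 and -0.25. All points share depth and TMM scaling.

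A wider list of 83 autophagy genes, which holds the 10 members, was sorted into 9 roles. Of these, 80 were in the filtered table, and WIPI1, MAP1LC3C and RETREG1 were not, with at most 3, 2 and 20 counts in a library. Between FoEV and Co 10 of the 80 genes (6 higher, 4 lower) had an unadjusted p under 0.05, a share of 12.5% against the background of 15.1%. FeEV and Co gave 3 genes, all lower, a share of 3.75% against 4.15%. FoEV and FeEV gave 10 genes, all higher, a share of 12.5% against 8.52% for both directions and 4.83% for higher genes. None of the 80 passed the adjusted threshold in edgeR. The median log2 differences of the list were 0.01, -0.04 and 0.08, and those of all genes 0.01, 0.0039 and 0.0092.

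**Figure D4:**
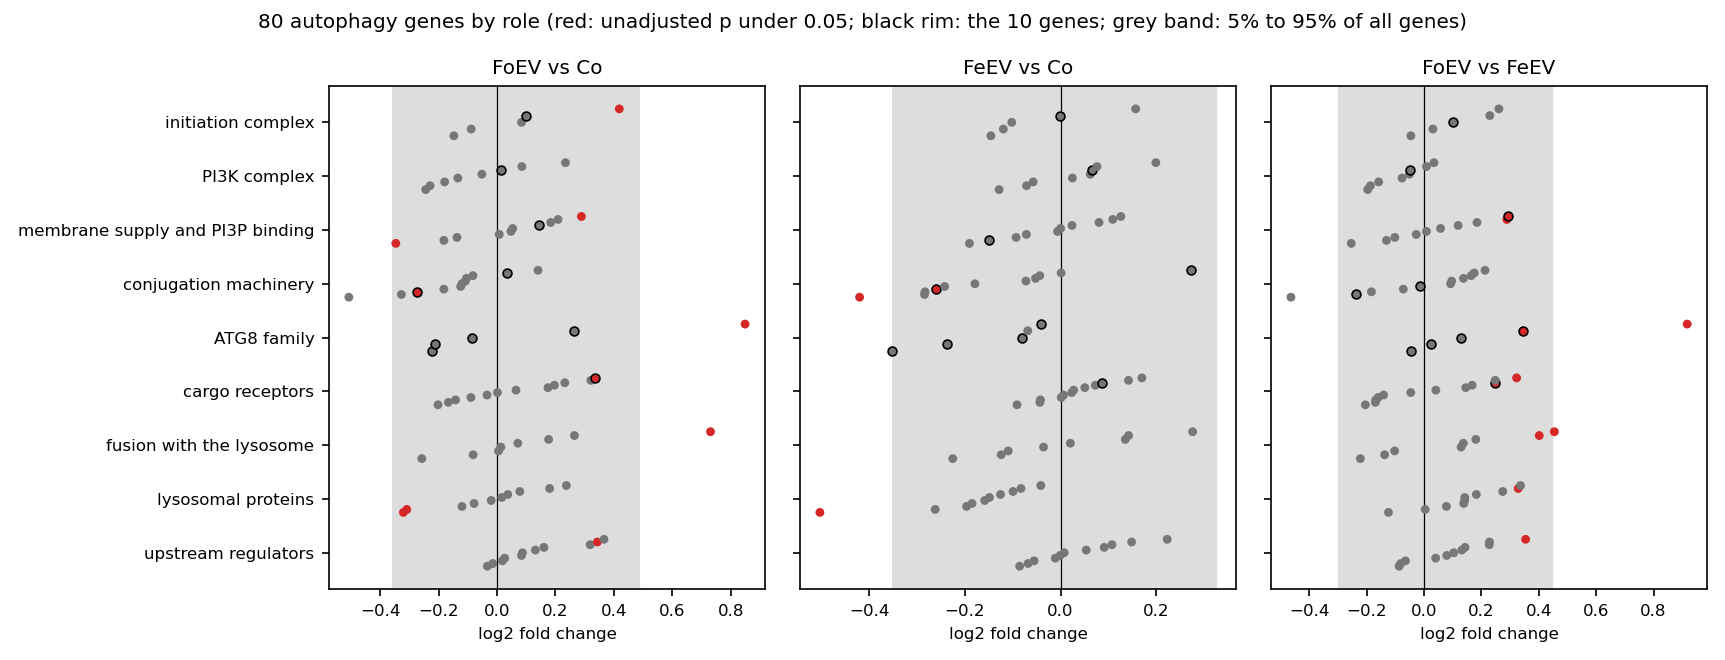
Log2 fold change of 80 autophagy genes by role in the 3 comparisons, with 1 point per gene, sorted within each role. Red marks an unadjusted p under 0.05, a black rim the 10 members and the grey band the middle 90% of all 10832 genes. Panels have axes of their own. Between FoEV and Co, VAMP8 (0.73) and MAP1LC3A (0.85) lie to the right of the band, and between FeEV and Co all 10 lysosomal genes lie left of 0.

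VAMP8, a SNARE protein in the fusion of the autophagosome with the lysosome, had the smallest p of the wider list between FoEV and Co. Its level was 13.9, 8.10, 9.997, 9.63 and 13.95 CPM in Co, 11.9, 13.0, 15.3, 12.3 and 14.3 CPM in FeEV and 17.4, 17.9, 17.9, 24.0 and 14.99 CPM in FoEV. Every FoEV library lay above every Co library, which held for 1.26% of all genes, and FoEV replicate 5 lay within the FeEV range. The log2 difference was 0.73 between FoEV and Co (standard error 0.18, edgeR adjusted p = 0.0943), and the likelihood ratio test with robust dispersion gave it an adjusted p of 0.0121. Between FoEV and FeEV it was 0.45 (edgeR adjusted p = 0.501). The paper, which used the same libraries, lists VAMP8 among the genes upregulated in FoEV against Co. SNAP29, which pairs with it in the same fusion step, had 29.6 ± 5.59, 25.1 ± 4.76 and 33.5 ± 3.47 CPM in Co, FeEV and FoEV (SD, n = 5) and a log2 difference of 0.40 between FoEV and FeEV (edgeR adjusted p = 0.496). STX17, the syntaxin of that SNARE complex, had -0.26 between FoEV and Co.

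Genes of lysosomal proteins were lower in FeEV than in Co in 10 of 10 cases, or 9 of 10 when scaled by library totals alone or with the description numbers as a block. Their median log2 difference was -0.15, against 0.0039 over all genes. CTSL, the protease cathepsin L, was the one of them with an unadjusted p under 0.05. It had 367.5, 251.3, 313.1, 286.2 and 388.6 CPM in Co, 190.1, 215.4, 266.5, 231.8 and 229.6 CPM in FeEV and 275.1, 226.5, 255.1, 238.4 and 290.9 CPM in FoEV. FeEV replicate 3 overlapped the lowest Co library, and the other FeEV libraries lay below all of Co. The log2 difference from Co was -0.50 in FeEV (standard error 0.11, edgeR adjusted p = 0.766) and -0.32 in FoEV (standard error 0.11, edgeR adjusted p = 0.195). CTSL passed the adjusted threshold between FeEV and Co with no filter on low counts (0.00516) and with the likelihood ratio test (0.0385). The paper, which used the same libraries, lists CTSL among the genes downregulated in FeEV against Co. For this comparison its threshold was a likelihood ratio taken over from another comparison, and not an adjusted p. Between FoEV and FeEV, 9 of 10 lysosomal genes were higher in FoEV, where 51.8% of all genes were higher. The FeEV libraries enter both comparisons. The split was 8 of 10 with library totals, no filter, the likelihood ratio test or the description numbers as a block. The median fell from 0.14 to 0.08 with that block.

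TFE3, a transcription factor of lysosome and autophagy genes, had 58.7 ± 9.96, 58.3 ± 9.81 and 74.6 ± 10.7 CPM in Co, FeEV and FoEV (SD, n = 5). It was higher in FoEV by 0.34 than in Co (standard error 0.13, edgeR adjusted p = 0.230) and by 0.35 than in FeEV (standard error 0.13, edgeR adjusted p = 0.501). FoEV replicate 4, with 93.1 CPM, was the highest library, and FoEV replicates 2, 3 and 5, with 66.1 to 72.1 CPM, lay below the highest Co library, which had 72.6. Its relative TFEB had a log2 difference of 0.37 between FoEV and Co, and MTOR, the kinase that restrains both factors, 0.08. Among the 11 measured upstream regulators, 9 were higher and 2 lower in FoEV than in Co, where 52.3% of all genes were higher. Their median was 0.09, against 0.01 over all genes. TFE3 was the only one of the 11 with an unadjusted p under 0.05, against a background of 15.1% of all genes. TOLLIP, a receptor that binds ubiquitin, was higher by 0.32 in FoEV than in FeEV (standard error 0.15, edgeR adjusted p = 0.572).

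**Figure D5:**
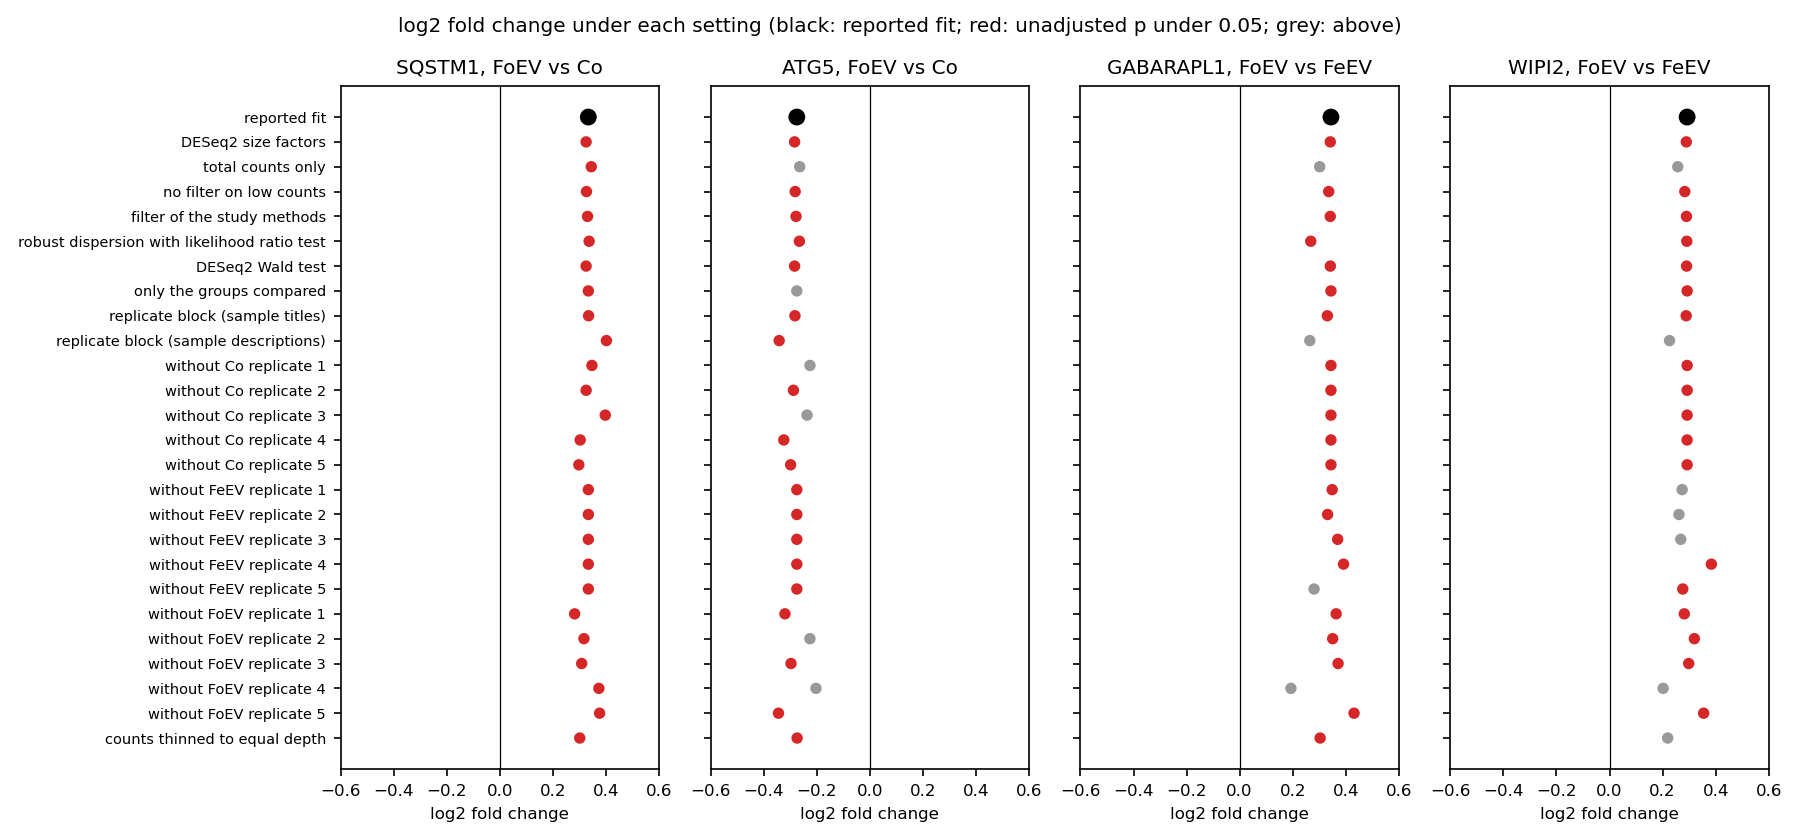
Log2 fold change of SQSTM1 and ATG5 (FoEV against Co) and of GABARAPL1 and WIPI2 (FoEV against FeEV) under each setting, with the reported fit in black and the alternatives in red where the unadjusted p was under 0.05 and in grey otherwise. SQSTM1 stays between 0.28 and 0.40 and is red throughout, while GABARAPL1 drops to 0.19 without FoEV replicate 4.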

How the data were processed

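RNA of 15 pools of blastocysts had been sequenced with a low-input total RNA kit after removal of rRNA fragments. The submitters' processing notes name Trim Galore 0.4.3.1, HISAT2 2.1.0 and featureCounts 1.6.3 with the bovine assembly ARS-UCD1.2, and the paper names QuasR for counting. The authors deposited raw read counts per gene, without normalization, for 34773 genes and for the 10832 genes left after their filter on low counts. Gene symbols were joined by identifier from RefSeq tables of a later bovine assembly (10709 of 10832 matched), so neither coordinates nor sequences are given. Groups follow the sample titles.

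The filtered counts were scaled by TMM (factors 0.884 to 1.10) and fitted in edgeR 4.0.16 (R 4.3.3) with treatment as the only factor over all 15 libraries, and 3 contrasts were tested with the quasi-likelihood F test (robust=TRUE) and Benjamini-Hochberg adjustment over 10832 genes. Genes with an adjusted p under 0.05 were called, and an unadjusted p under 0.05 was counted beside it. Standard errors and 95% intervals were derived from the F statistics. Correlations used log2 CPM with a prior count of 2. DESeq2 1.42.0 and the other settings are given in the closing section, and tables and figures were made with Python 3.11.15, pandas 2.3.3, numpy 2.4.6 and matplotlib 3.10.9. The fits were tested on simulated data with changes larger than any member difference reported here, so power at the reported differences was not tested.

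Named are all 10 members, the genes of the wider list with an unadjusted p under 0.05 (up to 12 per comparison) and the 5 genes most like SQSTM1. Some genes that this rule names are not reported here. Other genes of a role, and the marker genes, were named after their values were seen, to show the range of the role. The members, gene lists and tests were chosen with earlier results of these data known. Totals ran from 2136713 to 4058887 counts per library. The sources used here name no counting by molecular identifiers, so the coefficients of variation from counting are lower limits. No 2 libraries of a group were alike within sampling noise (chi-square per gene of at least 3.74).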

Additional observations from a re-analysis of the deposited data

Results flagged for a closer look

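The level of WIPI2 in FeEV replicate 4, 64.2 CPM, stood apart from the other 4 FeEV libraries, which had 46.05 to 48.3 CPM. The gap to the next library was 0.875 of the range of the group, above the critical value of 0.71 of Dixon's test for 5 values. Of the 10 members, each was tested so in 3 treatments, 30 groups in all, and chance flags about 1 in 20 groups.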

How the results depend on the processing

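Members called at the adjusted threshold were 0 in each comparison under all 10 alternative settings and all 15 runs that left out 1 library. The number of all genes called between FoEV and Co was 1 in the reported fit and 8 with library totals as the only scale, 173 with no filter on low counts, 311 with robust dispersion and a likelihood ratio test, 144 with the Wald test of DESeq2, 5 with only the groups compared, 6 with counts thinned to equal depth and 0 to 58 with 1 library left out, 58 without FoEV replicate 2. Between FeEV and Co it was 0, and 13 with no filter, 6 with the likelihood ratio test, 1 with the Wald test and 0 to 1 with 1 library left out. Between FoEV and FeEV it was 0, and 22 with no filter, 31 with the likelihood ratio test, 3 with the Wald test and 0 to 1 with 1 library left out. In the wider autophagy list, no filter and the likelihood ratio test each called 1 gene between FoEV and Co and 1 between FeEV and Co. The cause of these differences was not tested.

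With the replicate number of the titles as a block, 57, 0 and 0 of all genes and 0 members were called. With the numbers of the descriptions as a block, 12, 0 and 1 genes were called. Libraries of the same title number correlated in their residuals between -0.29 and 0.44 (mean 0.12, against -0.03 for other pairs). A library correlated best with its own number in 11 of 30 comparisons with another treatment. The pairs of replicate 5 had 0.42, 0.35 and 0.44, and pairs of unlike number at most 0.34. Per the paper, fresh and frozen oEVs came from the same oviducts. No source used here states which pools match, so the reported fit is unpaired and the blocks are given beside it. Library totals as the only scale moved the share of higher genes among those with an unadjusted p under 0.05 from 54.3% to 65.5% between FoEV and Co and from 44.1% to 70.4% between FeEV and Co.

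Of 750 values of members under alternatives, 725 kept their sign and side of the threshold and 25 turned sign. This count includes runs that left out a library of the treatment not compared. The smallest edgeR adjusted p of a member in the reported fit was 0.153, so keeping the side of the threshold says little about stability. Between FeEV and Co, ULK1 (-0.0014) was 0.034 with library totals, 0.049 with thinned counts, 0.0012 with the title block and 0.090 with the description block, and -0.047 to 0.054 with 1 library left out. GABARAPL1 was 0.11 with the description block. Between FoEV and FeEV, MAP1LC3B was -0.0011 with library totals and -0.065 to 0.12 with 1 library left out, and ATG5 was 0.0017 with the description block and -0.085 to 0.057 with 1 library left out. Between FoEV and Co, the values with 1 library left out ran from -0.086 to 0.20 for ATG7, from -0.016 to 0.048 for BECN1 and from -0.0031 to 0.14 for ULK1. At 43 to 714 counts per member and library, counting error is part of every spread given here.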
